A study of Mus musculus with 18 samples.

Results

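The 9 genes described here encode enzymes that carry squalene to cholesterol: *Sqle*, *Lss*, *Cyp51*, *Msmo1*, *Nsdhl*, *Hsd17b7*, *Ebp*, *Sc5d* and *Dhcr7*. They were taken by name, as members of the post-squalene part of the pathway, with earlier results of these data known, from 31053 genes in the table, of which 12290 passed the filter on low counts. All 9 members passed it. Bulk RNA-Seq was available for BM-derived macrophages, cells grown out of bone marrow in culture, from 3 *Slc7a7*-LysM knockout mice (Slc7a7-/-, LysM-Cre) and 3 corresponding wild type mice (Slc7a7+/+), all on the C57Bl/6J background and 12 weeks old by the study's methods. Cells of each mouse were kept in control medium with vehicle, or given acetylated LDL (Ac-LDL, 50 µg/mL) or oxidized LDL (Ox-LDL, 100 µg/mL) for 24 h, which makes 6 groups of 3 libraries and 18 libraries in all. The doses of the 2 lipoproteins differed, so Ox-LDL against Ac-LDL compares those doses as well as the particles. *Slc7a7* encodes a subunit of an amino acid transporter, and the Cre is driven from the *Lyz2* locus, so the deletion is restricted to myeloid cells. Whether the wild type mice carried floxed alleles or Cre was not stated in the sources used here.

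As background, cells make cholesterol from acetyl-CoA. A first set of enzymes builds squalene, squalene epoxidase and lanosterol synthase close it into the first sterol, and the remaining enzymes strip methyl groups from that sterol and move or reduce its double bonds. The transcription factor SREBP-2, held back in the endoplasmic reticulum when sterol is plentiful, switches on most of these genes. Macrophages that take up modified LDL receive cholesterol from outside and become foam cells, the lipid-filled cells of the atherosclerotic plaque.

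Total counts were 1043492 to 1768816 per library (median 1466145), so that 3 counts, the upper limit for a gene with 0 counts, came to 1.67 to 2.85 CPM (counts relative to library size). This limit covers counting error only. All CPM values below were scaled with TMM size factors. *Slc7a7* was lower in every knockout library than in any wild type library of the same medium. Mean CPM, wild type first, was 14.9 and 6.58 in control medium, 25.3 and 3.27 under Ac-LDL, and 27.98 and 9.91 under Ox-LDL. By edgeR this difference passed the threshold on the adjusted p with Ac-LDL only (log2 −2.886). In control medium and with Ox-LDL it did not pass (log2 −1.18 and −1.495). No share of all genes stands beside this separation of libraries. All 8 macrophage markers listed were expressed, whereas the summed level of 5 lymphoid markers was at most 0.842 CPM and that of 4 erythroid markers at most 1.86 CPM. Summed over 8 neutrophil markers the level was 25.5 to 252 CPM, over 5 dendritic markers at most 4.62 CPM and over 5 stromal markers at most 26.9 CPM. The macrophage sum was lower in knockout (12530 to 20930 CPM) than in wild type (21080 to 35760 CPM), which came with *Lyz2*, the gene the Cre is inserted in; without it the sums overlapped (3991 to 6676 and 3383 to 6580 CPM). In each genotype 1 of 3 mice expressed *Xist* and no Y-linked gene, and the other 2 the reverse. Libraries were numbered with all wild type samples before all knockout samples, so genotype and library order cannot be told apart.

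Upstream sequence was available from RefSeq (GRCm38.p6) for 8 of the 9 members, and *Sqle* was the exception. SREBP works at its promoters beside the factors NF-Y and Sp1, so the bases before each annotated start were searched on both strands for CCAAT (the NF-Y box), GGGCGG (the GC box of Sp1), TCACNCCA (the core of a sterol regulatory element) and CACGTG (an E-box). The stretches below are the 30 bases around the NF-Y box nearest the start, or for *Msmo1* around the sterol element and its neighbouring NF-Y box, on the strand of the gene. They are shown because all 8 hold this box. Capitals mark the NF-Y box (CCAAT, or ATTGG where it lies on the other strand) and, in *Msmo1*, the sterol element as well.
Lss, chr10:76531531-76531560, plus strand: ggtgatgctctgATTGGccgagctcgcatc
Cyp51, chr5:4104709-4104738, minus strand: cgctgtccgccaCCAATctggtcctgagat
Msmo1, chr8:64733730-64733759, minus strand: attcTCACTCCAtccgcgcagCCAATgact
Nsdhl, chrX:72918489-72918518, plus strand: aagactagcctcATTGGgcaaaatcatgct
Hsd17b7, chr1:169969206-169969235, minus strand: gagccgggccgagccttgATTGGtcgaggt
Ebp, chrX:8193550-8193579, minus strand: atccctgtactgATTGGttcgtcagattcg
Sc5d, chr9:42264307-42264336, minus strand: cgccggctgctgATTGGccggctgcctgca
Dhcr7, chr7:143830153-143830182, plus strand: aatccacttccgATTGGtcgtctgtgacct

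Within 250 bases of the start the NF-Y box was found in 8 of 8 members, against 33.8% of all 32851 promoters of this length and 37.5% of genes. The GC box was likewise found in 8 of 8, against 32.7% of promoters and 35.4% of genes. The sterol element core was found in *Msmo1* alone (3.67% of promoters), and the E-box in *Hsd17b7*, *Sc5d* and *Dhcr7* (6.02%). *Dhcr7* has 3 annotated starts, and its NF-Y box lies before the third of them. A match is a description of these letters and no proof of binding. Only the spelling TCACNCCA was searched for the sterol element, so an element with other letters was missed. The lack of a match does not show that a member has no such element.

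**Figure D1:**
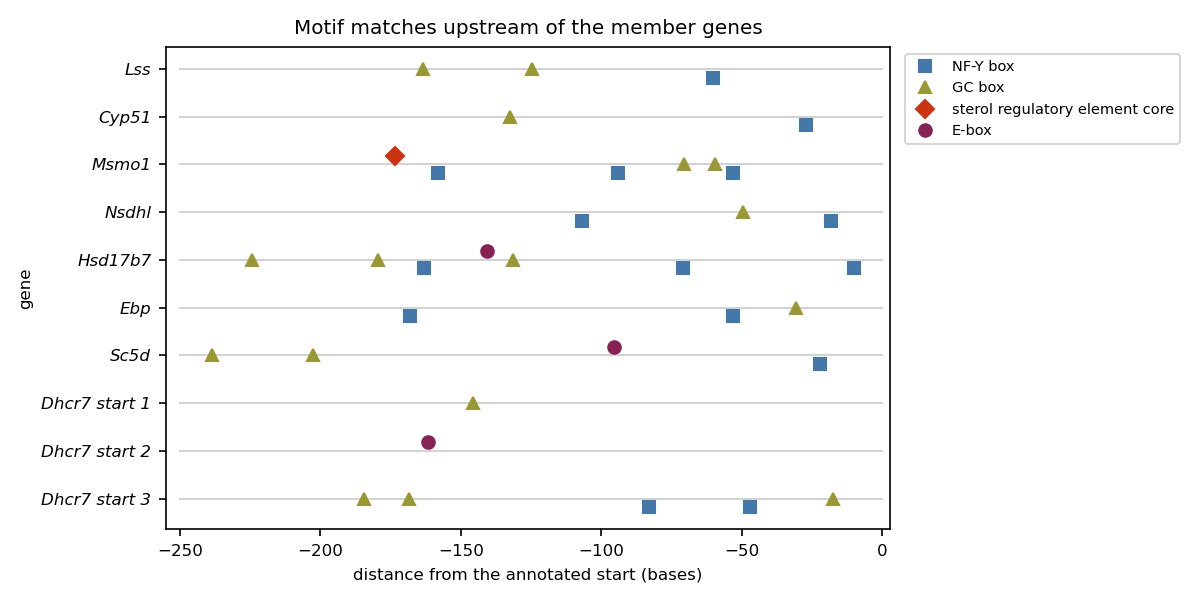
Matches to 4 motifs in the 250 bases before each annotated start of the 8 member genes with a RefSeq promoter, with distance from the start in bases on the horizontal axis and 1 row per start. An NF-Y box and a GC box stand in the row of each gene, *Ebp* included, for *Dhcr7* before its start 3.

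Nearly the whole set was lower with both modified LDLs. Summed over the 9 members, wild type libraries held 637 to 714 CPM in control medium, 166 to 201 CPM with Ac-LDL and 147 to 189 CPM with Ox-LDL. Knockout libraries held 586 to 736, 209 to 279 and 147 to 171 CPM. With Ac-LDL 6 of 9 members fell past an adjusted p of 0.05 in wild type, where 0.407% of all genes tested did, and 6 of 9 in knockout (0.448% of all genes). With Ox-LDL 7 of 9 fell in each genotype, beside 1.07% of all genes in wild type and 1.66% in knockout. Averaged over the genotypes, 8 of 9 fell with Ac-LDL (1.44% of all genes) and 8 of 9 with Ox-LDL (3.57%). No member rose. The median log2 fold change of the members was −1.65 for Ac-LDL in wild type, −1.46 for Ac-LDL in knockout, −1.81 for Ox-LDL in wild type and −1.93 for Ox-LDL in knockout, while the median over all genes tested lay within 0.01 of 0. In each of these 4 comparisons 8 of 9 members had every treated library below every control library, a pattern that 5.48%, 9.37%, 6.17% and 11.6% of all genes showed (in the order given). The exception was *Ebp*. In knockout the macrophage marker sum without *Lyz2* was also lower with Ac-LDL (4856 to 5536 CPM) and with Ox-LDL (3991 to 5005 CPM) than in control medium (5591 to 6676 CPM), whereas in wild type it overlapped. In wild type the neutrophil sum was higher with Ox-LDL (142 to 252 CPM against 72.9 to 126 CPM), and their part in these results was not tested. In bulk samples, fewer cells of a type and less RNA per cell cannot be told apart.

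**Figure D2:**
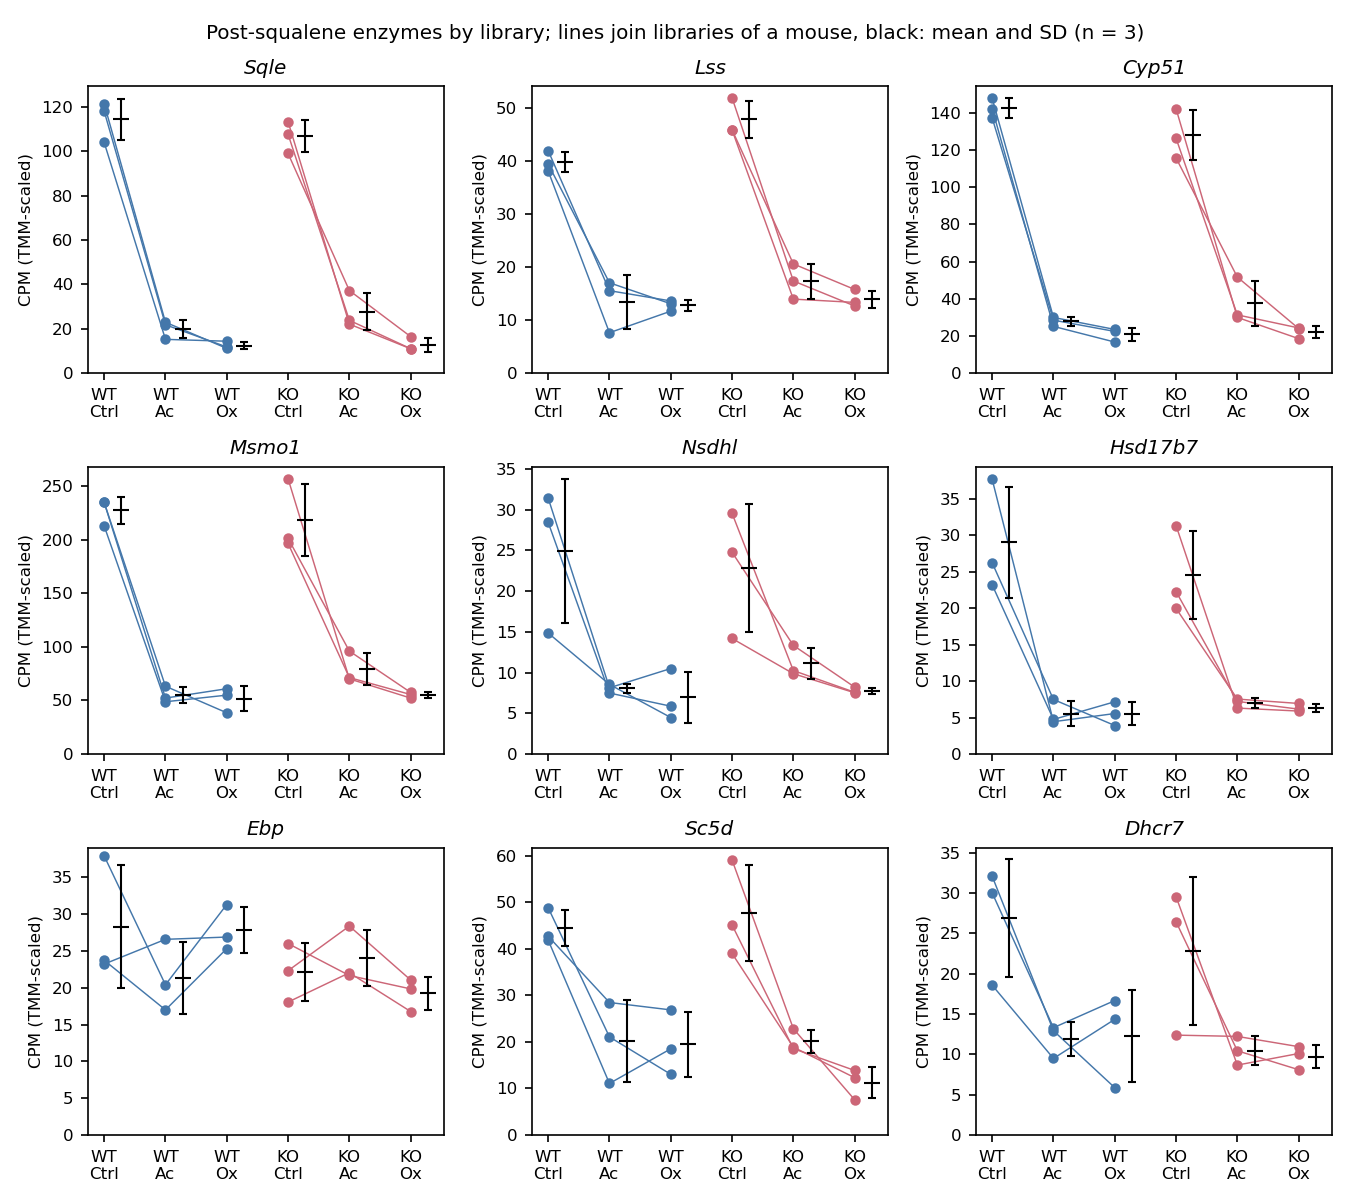
CPM of each of the 9 members in every library (vertical axes, linear and starting at 0) for the 6 groups, wild type in blue and knockout in red, with lines joining the 3 libraries of a mouse and black bars for the mean and SD (n = 3). Within each genotype the treated points lie below the control points in every panel except that of *Ebp*.

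Squalene epoxidase, encoded by *Sqle* (ENSMUSG00000022351, chr15:59315077-59331192 on the plus strand, GRCm38), puts oxygen on squalene and is a rate-limiting step of the pathway. In wild type mice 1, 2 and 3 *Sqle* measured 104, 121 and 118 CPM in control medium, 15.2, 22.9 and 21.8 with Ac-LDL, then 14.3, 11.1 and 11.7 with Ox-LDL. The knockout mice gave 113, 99.04 and 108 CPM in control medium, 22.1, 37.2 and 23.8 with Ac-LDL, then 10.9, 16.4 and 10.98 with Ox-LDL. Every treated library lay far below every control library of its genotype. The level with Ac-LDL was 17.7% (95% interval 13.3 to 23.6) of control in wild type and 26.4% (95% interval 20.3 to 34.3) in knockout, a log2 fold change of −2.50 ± 0.20 and −1.92 ± 0.18 (SE, n = 3 per group, edgeR adjusted p = 2.36e-08 and 7.92e-07). With Ox-LDL the values were 10.7% (95% interval 7.90 to 14.6) and 12.1% (95% interval 8.94 to 16.3), or −3.22 ± 0.21 and −3.05 ± 0.21 on the log2 scale (edgeR adjusted p = 6.18e-10 and 1.05e-09). Of the 9 members *Sqle* had the lowest share of control left with Ox-LDL in both genotypes. Lanosterol synthase, *Lss* (ENSMUSG00000033105, chr10:76531588-76557138 on the plus strand), folds the epoxide into the first sterol. Wild type mice 1 to 3 had *Lss* at 38.1, 41.9 and 39.4 CPM in control medium, 7.59, 15.5 and 17 with Ac-LDL, then 11.7, 13.6 and 13.04 with Ox-LDL. Knockout mice 1 to 3 had 51.9, 45.8 and 45.8 CPM in control medium, 17.3, 20.6 and 13.9 with Ac-LDL, then 12.6, 15.7 and 13.3 with Ox-LDL. Treated and control libraries did not overlap, and those with Ac-LDL and Ox-LDL overlapped each other. Its level with Ac-LDL was 34.7% (95% interval 24.8 to 48.4) of control in wild type and 36.3% (95% interval 26.8 to 49.1) in knockout, a log2 fold change of −1.53 ± 0.23 and −1.46 ± 0.21 (SE, n = 3 per group, edgeR adjusted p = 0.000602 and 0.000344). Ox-LDL left 32.4% (95% interval 23.2 to 45.2) and 29.2% (95% interval 21.3 to 40.1), or −1.63 ± 0.23 and −1.77 ± 0.22 on the log2 scale (edgeR adjusted p = 0.000144 and 1.76e-05). The ratio of *Sqle* to *Lss* CPM was 2.16 to 3 in the 6 control libraries (median 2.54). It was 1.27 to 2 with Ac-LDL (median 1.6) and 0.818 to 1.23 with Ox-LDL (median 0.883). The 3 media did not overlap on this ratio, which was looked at after the values were known. Between the LDLs the gap was narrow and rested on few counts. Knockout mouse 1 with Ac-LDL had 28 *Sqle* and 22 *Lss* counts (1.27). Wild type mouse 1 with Ox-LDL had 16 and 13 (1.23). How often other pairs of genes separate the media was not computed. An antisense gene, *4930483K19Rik*, overlaps *Lss* and had 0 counts in all 18 libraries.

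Lanosterol is first stripped of a methyl group by the cytochrome P450 enzyme encoded by *Cyp51* (ENSMUSG00000001467, chr5:4081145-4104746 on the minus strand), the mammalian counterpart of the azole drug target of fungi. *Cyp51* in the wild type mice stood at 137, 142 and 148 CPM in control medium, 28.5, 25.1 and 29.9 with Ac-LDL, then 22.4, 16.7 and 23.5 with Ox-LDL. Among the knockout mice it was 142, 116 and 126 CPM in control medium, 29.9, 51.6 and 31.3 with Ac-LDL, then 18.5, 23.9 and 24.3 with Ox-LDL. The highest treated library, 51.6 CPM in knockout mouse 2 with Ac-LDL, was below the lowest control library at 116 CPM. With Ac-LDL the level was 19.6% (95% interval 14.96 to 25.6) of control in wild type and 29.8% (95% interval 23.2 to 38.2) in knockout, a log2 fold change of −2.35 ± 0.19 and −1.75 ± 0.17 (SE, n = 3 per group, edgeR adjusted p = 2.36e-08 and 1.38e-06). For Ox-LDL the figures were 14.6% (95% interval 11.04 to 19.2) and 17.6% (95% interval 13.4 to 23.1), or −2.78 ± 0.19 and −2.51 ± 0.19 on the log2 scale (edgeR adjusted p = 1.28e-09 and 5.6e-09). *Akap9*, which overlaps *Cyp51* on the opposite strand, had log2 fold changes of 0.16 with Ac-LDL and 0.25 with Ox-LDL averaged over the genotypes (edgeR adjusted p = 0.499 and 0.114).

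A complex of 3 enzymes then removes the remaining pair of methyl groups. *Msmo1* (ENSMUSG00000031604, chr8:64718139-64733792 on the minus strand) encodes its oxidase. In wild type mice 1, 2 and 3 *Msmo1* measured 235, 213 and 235 CPM in control medium, 52.2, 48.8 and 63.2 with Ac-LDL, then 60.9, 54.9 and 38.5 with Ox-LDL. The knockout mice gave 257, 201 and 197 CPM in control medium, 70.1, 96.1 and 71.3 with Ac-LDL, then 52.2, 57.5 and 55.5 with Ox-LDL. The highest treated library stood at 96.1 CPM and the lowest control library at 197 CPM. Its level with Ac-LDL was 24.2% (95% interval 19.1 to 30.7) of control in wild type and 36.5% (95% interval 29.2 to 45.6) in knockout, a log2 fold change of −2.05 ± 0.17 and −1.46 ± 0.16 (SE, n = 3 per group, edgeR adjusted p = 2.87e-08 and 4.3e-06). With Ox-LDL the values were 22.5% (95% interval 17.7 to 28.5) and 25.3% (95% interval 20.01 to 31.97), or −2.15 ± 0.17 and −1.98 ± 0.16 on the log2 scale (edgeR adjusted p = 8.5e-09 and 3.05e-08). *Nsdhl* (ENSMUSG00000031349, chrX:72918557-72958514 on the plus strand), the X-linked dehydrogenase of the complex, was measured at low counts (5 to 49 per library). Wild type mice 1 to 3 had *Nsdhl* at 14.8, 31.4 and 28.4 CPM in control medium, 8.54, 8.13 and 7.48 with Ac-LDL, then 4.48, 10.5 and 5.87 with Ox-LDL. Knockout mice 1 to 3 had 29.5, 24.8 and 14.2 CPM in control medium, 10.2, 13.3 and 9.86 with Ac-LDL, then 7.58, 8.21 and 7.51 with Ox-LDL. Control libraries spread widely, from 14.2 to 31.4 CPM, yet stayed above all treated libraries of their genotype; the highest control library of each genotype came from the mouse that expressed *Xist*, whose part in this spread was not tested. The share left with Ac-LDL was 31.9% (95% interval 19.5 to 52.1) of control in wild type and 49.2% (95% interval 31.5 to 76.7) in knockout, a log2 fold change of −1.65 ± 0.34 and −1.02 ± 0.31 (SE, n = 3 per group, edgeR adjusted p = 0.0209 and 0.223). Ox-LDL left 28.6% (95% interval 17.5 to 46.7) and 34.2% (95% interval 21.2 to 55.1), or −1.81 ± 0.34 and −1.55 ± 0.33 on the log2 scale (edgeR adjusted p = 0.00409 and 0.00952). With mouse as a block the fall with Ac-LDL in knockout passed too (log2 −0.99, edgeR adjusted p = 0.04). With 1 library left out, the call with Ac-LDL in wild type was lost in 5 of 6 fits (edgeR adjusted p = 0.0656 to 0.151) and that with Ox-LDL in knockout in 2 of 6 (0.0685 and 0.0872). *Hsd17b7* (ENSMUSG00000026675, chr1:169949535-169969241 on the minus strand) encodes the ketoreductase that completes the round, with 5 to 54 counts per library. *Hsd17b7* in the wild type mice stood at 23.2, 37.7 and 26.2 CPM in control medium, 4.75, 4.43 and 7.48 with Ac-LDL, then 7.17, 5.55 and 3.91 with Ox-LDL. Among the knockout mice it was 31.4, 22.3 and 19.98 CPM in control medium, 6.30, 7.22 and 7.54 with Ac-LDL, then 5.89, 6.16 and 6.94 with Ox-LDL. Here again no treated library reached a control library. The level of the ketoreductase with Ac-LDL was 19.5% (95% interval 12.5 to 30.5) of control in wild type and 29.01% (95% interval 19.2 to 43.8) in knockout, a log2 fold change of −2.36 ± 0.31 and −1.79 ± 0.29 (SE, n = 3 per group, edgeR adjusted p = 7.79e-05 and 0.00126). For Ox-LDL the figures were 18.7% (95% interval 12.04 to 29.1) and 26.2% (95% interval 17.1 to 40.1), or −2.42 ± 0.31 and −1.93 ± 0.30 on the log2 scale (edgeR adjusted p = 2.78e-05 and 0.000297).

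*Ebp* (ENSMUSG00000031168, chrX:8185329-8193512 on the minus strand) encodes the isomerase that shifts a double bond in the sterol ring, and it is also known as a binding site of emopamil and other drugs. In wild type mice 1, 2 and 3 *Ebp* measured 23.2, 23.7 and 37.9 CPM in control medium, 26.6, 16.99 and 20.4 with Ac-LDL, then 26.9, 25.3 and 31.3 with Ox-LDL. The knockout mice gave 22.3, 26 and 18.1 CPM in control medium, 28.4, 21.7 and 22.03 with Ac-LDL, then 21.1, 19.8 and 16.8 with Ox-LDL. Treated and control libraries overlapped in all 4 comparisons. Its level with Ac-LDL was 74.1% (95% interval 52.3 to 105) of control in wild type and 107% (95% interval 76.9 to 149.9) in knockout, a log2 fold change of −0.43 ± 0.24 and 0.10 ± 0.23 (SE, n = 3 per group, edgeR adjusted p = 0.755 and 0.966). With Ox-LDL the values were 97.9% (95% interval 70.3 to 136) and 86.2% (95% interval 60.9 to 122), or −0.03 ± 0.23 and −0.21 ± 0.24 on the log2 scale (edgeR adjusted p = 0.986 and 0.805). Averaged over the genotypes the log2 change was −0.17 ± 0.17 (95% interval −0.51 to 0.18) with Ac-LDL and −0.12 ± 0.17 (−0.47 to 0.22) with Ox-LDL (SE, n = 6 per group, edgeR adjusted p = 0.791 and 0.79). These averaged intervals lie above those of the other 8 members in the same comparisons, whose upper ends reached −0.64 at most. In single genotypes some intervals overlapped. With Ac-LDL in wild type that of *Ebp* overlapped those of *Sc5d* and *Dhcr7*. With Ox-LDL it overlapped that of *Dhcr7* in each genotype. With each LDL the change of *Ebp* was the highest of the 9 members in 5 of 6 mice, and *Dhcr7* in knockout mouse 2 was the exception both times. As the others fell, *Ebp* went from 3.01 to 5.31% of the members' summed CPM in control libraries to 7.77 to 14.7% with Ac-LDL and 10.7 to 21.3% with Ox-LDL. Across the 18 libraries its log2 CPM had a Pearson r of 0.178 with the mean of the other 8, while each other member had 0.80 to 0.973; the 18 points share 6 mice, and r is given as a description.

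Sterol desaturase, *Sc5d* (ENSMUSG00000032018, chr9:42251595-42264256 on the minus strand), introduces the double bond of the penultimate sterol. Wild type mice 1 to 3 had *Sc5d* at 42.7, 41.9 and 48.8 CPM in control medium, 28.5, 11.1 and 21.1 with Ac-LDL, then 26.9, 18.5 and 13.04 with Ox-LDL. Knockout mice 1 to 3 had 59.1, 39 and 45.1 CPM in control medium, 22.9, 18.9 and 18.6 with Ac-LDL, then 7.58, 12.3 and 13.9 with Ox-LDL. All treated libraries were below all controls, with wild type mouse 1 highest among the treated. Its level with Ac-LDL was 44.6% (95% interval 29.99 to 66.4) of control in wild type and 41.8% (95% interval 28.8 to 60.8) in knockout, a log2 fold change of −1.16 ± 0.28 and −1.26 ± 0.26 (SE, n = 3 per group, edgeR adjusted p = 0.0634 and 0.0193). Ox-LDL left 42.8% (95% interval 28.9 to 63.5) and 24.3% (95% interval 16.1 to 36.6), or −1.22 ± 0.28 and −2.04 ± 0.29 on the log2 scale (edgeR adjusted p = 0.0195 and 9.71e-05). The wild type value with Ac-LDL was past the threshold with mouse as a block (edgeR adjusted p = 0.00273). The call with Ac-LDL in knockout and that with Ox-LDL in wild type were each lost in 4 of 6 fits that left out 1 library (edgeR adjusted p = 0.0563 to 0.202 and 0.0555 to 0.145 in those fits). Last in the series, *Dhcr7* (ENSMUSG00000058454, chr7:143823145-143848410 on the plus strand) encodes the reductase that yields cholesterol and whose loss causes Smith-Lemli-Opitz syndrome. *Dhcr7* in the wild type mice stood at 18.6, 30.01 and 32.1 CPM in control medium, 9.49, 13.3 and 12.9 with Ac-LDL, then 14.3, 16.7 and 5.87 with Ox-LDL. Among the knockout mice it was 29.5, 12.4 and 26.4 CPM in control medium, 8.67, 12.2 and 10.4 with Ac-LDL, then 10.1, 10.9 and 8.09 with Ox-LDL. Knockout mouse 2 had the lowest control level and hardly changed, whereas the other 5 mice all had lower levels with both LDLs. Its level with Ac-LDL was 44.5% (95% interval 27.2 to 72.7) of control in wild type and 46.6% (95% interval 28.7 to 75.6) in knockout, a log2 fold change of −1.17 ± 0.34 and −1.10 ± 0.34 (SE, n = 3 per group, edgeR adjusted p = 0.194 and 0.227). For Ox-LDL the figures were 45.04% (95% interval 27.8 to 73.1) and 42.5% (95% interval 25.8 to 70.03), or −1.15 ± 0.34 and −1.23 ± 0.35 on the log2 scale (edgeR adjusted p = 0.116 and 0.0633). In no single genotype did *Dhcr7* pass, but averaged over the genotypes it did, at −1.14 ± 0.24 with Ac-LDL and −1.19 ± 0.24 with Ox-LDL (edgeR adjusted p = 0.009 and 0.00281). With mouse as a block it passed in wild type with Ac-LDL and in both genotypes with Ox-LDL (edgeR adjusted p = 0.0416, 0.0213 and 0.0144).

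**Figure D3:**
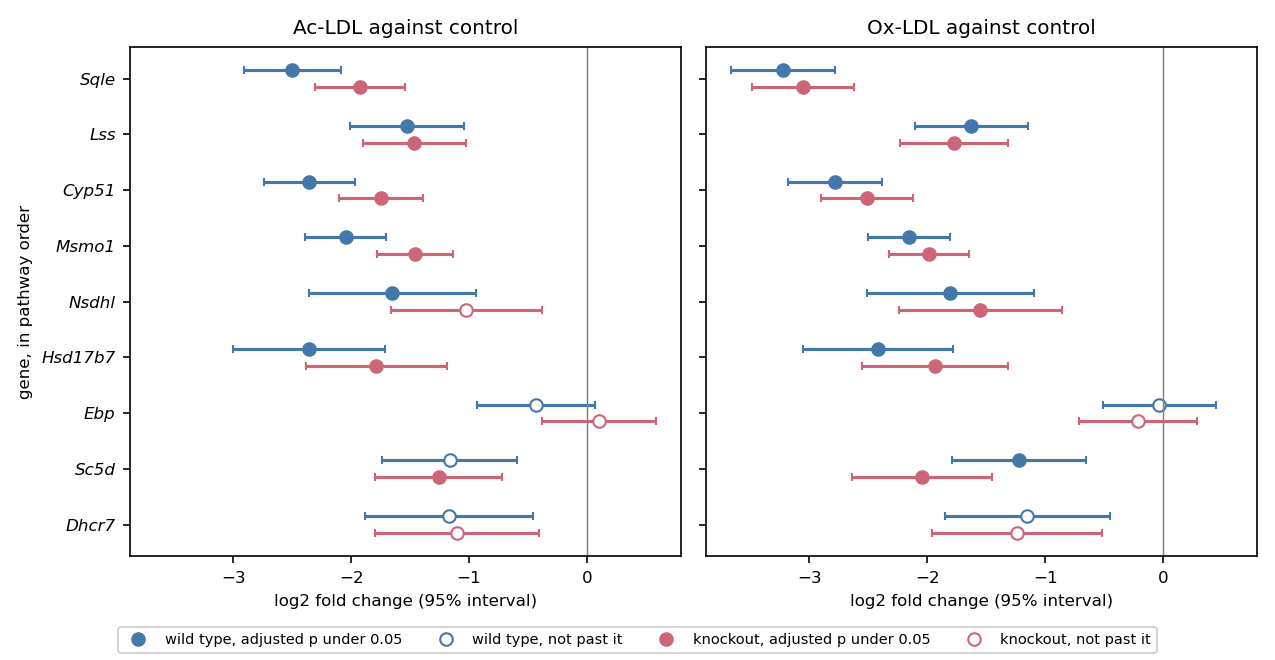
Log2 fold change against control with its 95% interval (horizontal axis) for the 9 members in pathway order, Ac-LDL on the left and Ox-LDL on the right, wild type in blue and knockout in red, filled where the edgeR adjusted p is under 0.05. The intervals of *Ebp* cross 0 in all 4 comparisons, and those of the other 8 members lie below 0.

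Set per kb of the principal transcript, levels could be ordered between genes. In wild type control libraries *Msmo1* led (111 ± 6.21 CPM per kb, SD, n = 3), followed by *Sqle* (41.5 ± 3.36), *Cyp51* (36.3 ± 1.35) and *Ebp* (16.2 ± 4.79), then *Nsdhl*, *Dhcr7*, *Sc5d*, *Lss* and *Hsd17b7* (11.5 to 6.30). The first 3 were each separate from the next, and from *Ebp* on neighbours overlapped. In knockout control libraries the same 5 led in the same order, with *Sqle* and *Cyp51* overlapping. With either LDL *Ebp* moved up to place 2 in both genotypes. Its mean was 12.2 to 15.97 CPM per kb in wild type and 11.03 to 13.8 in knockout. *Sqle* and *Cyp51* came next and overlapped each other. With Ac-LDL in knockout *Ebp* overlapped both *Sqle* and *Cyp51* as well. *Msmo1* remained first and *Hsd17b7* last in all 6 groups. The order depends on the transcript chosen to stand for each gene.

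**Figure D4:**
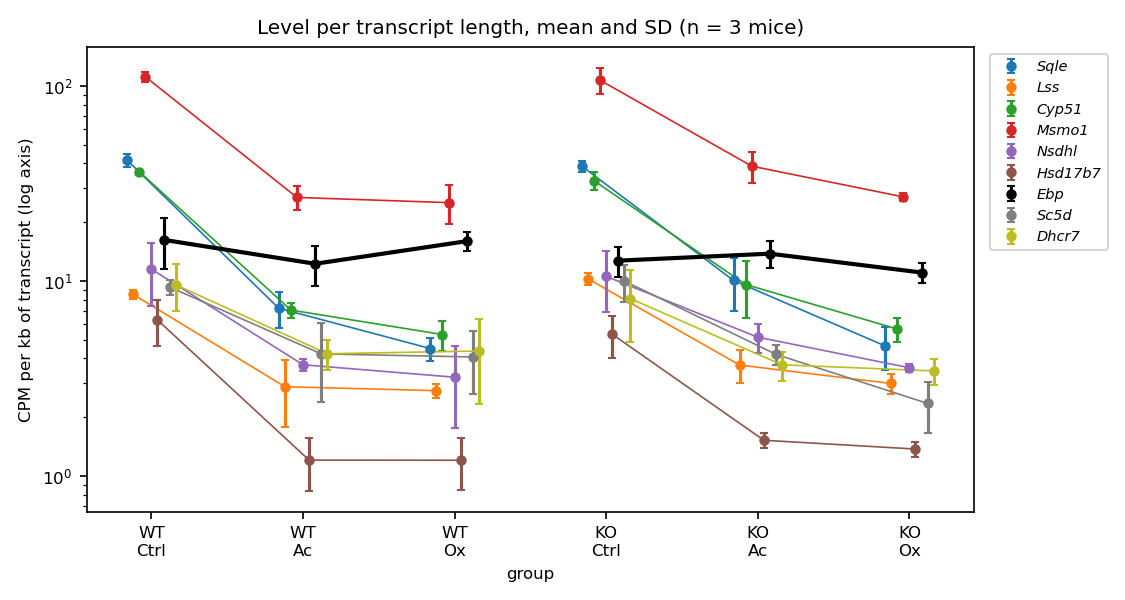
CPM per kb of principal transcript (vertical log axis) of the 9 members in the 6 groups, as the mean and SD of 3 mice, with lines joining the groups of a genotype and *Ebp* in black. *Ebp* stays between 11.03 and 16.2 while *Sqle* and *Cyp51* cross below it with either LDL.

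Each mouse gave cells to all 3 media, so the changes could also be read within mice. Mice were counted for the members only, so no share of all genes stands beside these counts. *Sqle*, *Lss*, *Cyp51*, *Msmo1*, *Nsdhl*, *Hsd17b7*, *Sc5d* and *Dhcr7* were lower with each LDL than in control medium in 6 of 6 mice, and *Ebp* in 3 of 6 with Ac-LDL and 4 of 6 with Ox-LDL. *Sqle* changed by −2.67 to −1.38 on the log2 CPM scale with Ac-LDL and by −3.30 to −2.50 with Ox-LDL. *Cyp51* changed by −2.44 to −1.14 and by −2.99 to −2.21. The smallest Ac-LDL change of *Sqle*, *Lss*, *Cyp51*, *Msmo1* and *Dhcr7* was that of knockout mouse 2.

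**Figure D5:**
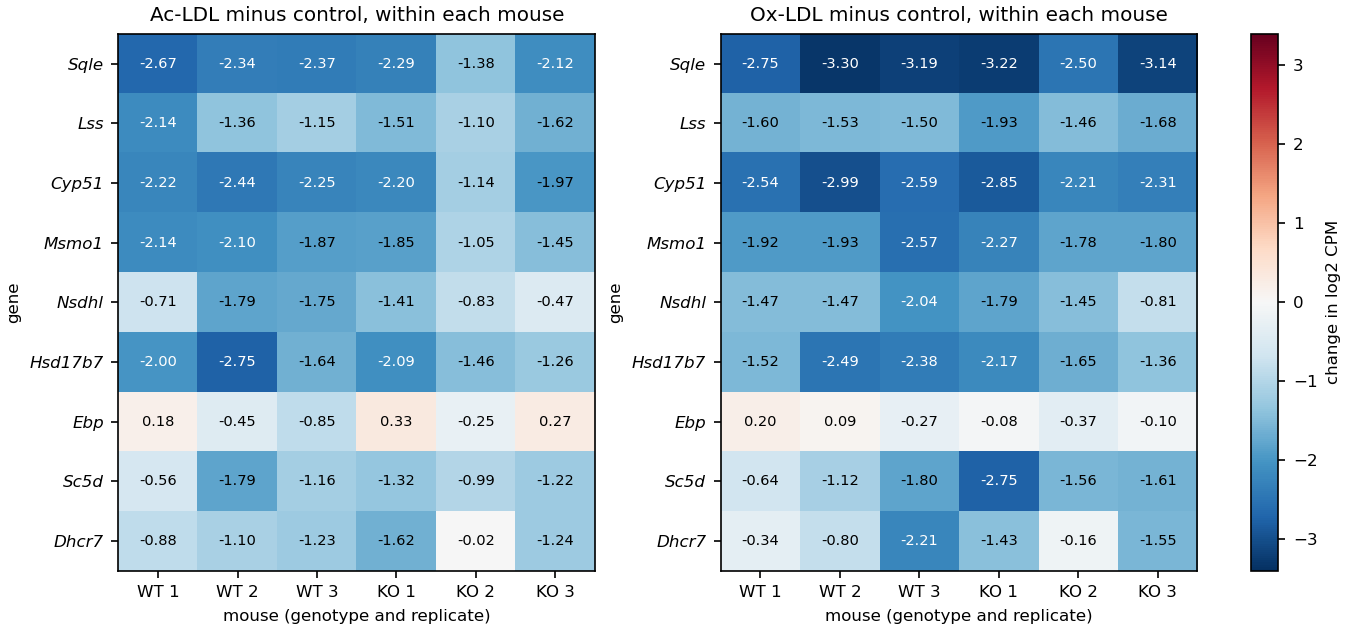
Change in log2 CPM against control medium within each of the 6 mice (columns) for the 9 members (rows), Ac-LDL on the left and Ox-LDL on the right, with the value printed in each cell and blue for lower. The row of *Ebp* is pale throughout, and knockout mouse 2 is pale for *Dhcr7*.

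Between the 2 lipoproteins, no member passed the threshold in wild type (0.00814% of all genes did, in either direction) or in knockout (0.0651%) by edgeR. At an unadjusted p under 0.05 edgeR had 1 member in wild type (5.14% of all genes) and 4 in knockout (5.55%), and DESeq2 called 0 members and 1 member, where it called 0.162% and 0.27% of the genes it gave an adjusted p. *Sqle* came nearest. In knockout its level with Ox-LDL was 45.8% (95% interval 32.6 to 64.3) of that with Ac-LDL (−1.13 ± 0.24 on the log2 scale, edgeR adjusted p = 0.0921), and it passed with mouse as a block (−1.13, edgeR adjusted p = 0.00758), with DESeq2 (adjusted p = 0.0379) and with no filter (edgeR adjusted p = 0.00516). Without knockout mouse 2 in Ac-LDL the difference was −0.86 (edgeR adjusted p = 0.737). In wild type it was −0.72 ± 0.26 (edgeR adjusted p = 0.834). *Cyp51* differed by −0.76 ± 0.21 in knockout and −0.43 ± 0.23 in wild type (edgeR adjusted p = 0.507 and 0.965). *Sqle* and *Cyp51* were lower with Ox-LDL than with Ac-LDL in 6 of 6 mice. Of the others, *Lss*, *Msmo1*, *Nsdhl*, *Hsd17b7*, *Ebp* and *Sc5d* were lower in 3 of 3 knockout mice and *Dhcr7* in 2 of 3. In wild type *Lss*, *Nsdhl* and *Sc5d* were lower in 2 of 3 mice, *Msmo1*, *Hsd17b7* and *Dhcr7* in 1 of 3 and *Ebp* in 0 of 3. The members were read in the same libraries, and the share of all genes with such counts of mice was not computed. The knockout differences of *Msmo1* and *Sc5d* were −0.53 ± 0.17 and −0.79 ± 0.32 (edgeR adjusted p = 0.641 and 0.848). Differences of the other 5 members in knockout were between −0.53 and −0.13 on the log2 scale. The 2 comparisons with control share their control libraries.

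The effect of *Slc7a7* loss was compared in each medium. No member differed past the threshold between knockout and wild type in control medium, with Ac-LDL or with Ox-LDL, where 0.00814%, 0.0163% and 0.00814% of all genes did in either direction by edgeR, and DESeq2 called 0 members in each (0.0244%, 0.0488% and 0.00814% of all genes). In control medium the differences lay between −0.36 (*Ebp*) and 0.26 (*Lss*) on the log2 scale, none with an unadjusted p under 0.05 (4% of all genes). With Ac-LDL *Sqle*, *Cyp51* and *Msmo1* were higher in knockout by 0.47 ± 0.22, 0.45 ± 0.21 and 0.53 ± 0.17 (edgeR adjusted p = 0.99 each), and these 3 were the members with an unadjusted p under 0.05, as had 4.89% of all genes. With Ox-LDL *Ebp* and *Sc5d* were the members with an unadjusted p under 0.05 (4.78% of all genes), at −0.54 ± 0.24 and −0.72 ± 0.32 (edgeR adjusted p = 0.933 each). The test of the genotype difference in response, an interaction term, called no gene of the 12290 with either LDL by edgeR (0% of all genes), although 2.66% of all genes with Ac-LDL, 3 members among them, and 2.75% with Ox-LDL, 0 members among them, had an unadjusted p under 0.05. For Ac-LDL DESeq2 called 1 gene (0.00814%), not a member, and for Ox-LDL it called 0 (0%). For Ac-LDL the interaction was 0.57 ± 0.28 for *Sqle*, 0.61 ± 0.26 for *Cyp51* and 0.59 ± 0.23 for *Msmo1*, in the direction of a smaller fall in knockout but not past the threshold (edgeR adjusted p = 1 each). Without the Ac-LDL library of knockout mouse 2 the values were 0.31, 0.31 and 0.44. With Ox-LDL the interaction farthest from 0 among the members was that of *Sc5d*, −0.82 ± 0.41 (95% interval −1.66 to 0.02, edgeR adjusted p = 1), in the direction of a larger fall in knockout. The 95% intervals of the interaction with Ox-LDL were −0.49 to 0.83 for *Sqle* and −0.30 to 0.85 for *Cyp51*. Differences inside these intervals were not excluded at this depth and replicate number.

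Beside the 9 members, 2 further reductases of the post-squalene pathway were read. *Lbr*, a nuclear membrane protein that doubles as a sterol reductase, had 81.5 ± 13.3, 80.8 ± 14.02 and 70.4 ± 6.73 CPM in wild type (control medium, Ac-LDL and Ox-LDL; SD, n = 3), and no fall past the threshold in any comparison (averaged over the genotypes 0.13 ± 0.11 with Ac-LDL and −0.09 ± 0.12 with Ox-LDL, edgeR adjusted p = 0.746 and 0.773). *Tm7sf2*, a second reductase for the same step, had 29.5 ± 6.30, 11.2 ± 6.85 and 24.5 ± 4.45 CPM in wild type and passed in no comparison. *Vps51* overlaps *Tm7sf2* on the same strand. Averaged over the genotypes *Vps51* changed by −0.071 with Ac-LDL and −0.695 with Ox-LDL (edgeR adjusted p = 0.932 and 0.0328). Its part in the *Tm7sf2* values was not tested.

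Upstream of squalene, 9 enzymes from *Acat2* to *Fdft1* were listed. In wild type 7 fell with Ac-LDL and 8 with Ox-LDL, in knockout 5 and 8, and averaged over the genotypes 9 of 9 with each, with medians of −1.95 and −2.62. *Idi1*, the isopentenyl diphosphate isomerase, fell by 2.24 on the log2 scale with Ac-LDL and by 3.25 with Ox-LDL (edgeR adjusted p = 3.1e-11 and 8.51e-14). *Hmgcs1* and *Fdps*, the synthases of HMG-CoA and farnesyl diphosphate, changed by −1.95 and −2.46 for Ac-LDL, and by −2.62 and −2.98 for Ox-LDL. Summed over these 9 genes the level was 690 to 868 CPM in control libraries, 171 to 286 with Ac-LDL and 143 to 217 with Ox-LDL.

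Partners that pass electrons to the post-squalene enzymes did not move as a group. Of 5, *Cyb5b*, a membrane cytochrome b, fell averaged over the genotypes with Ac-LDL (log2 −0.64 ± 0.13, edgeR adjusted p = 0.00793) and Ox-LDL (−0.73 ± 0.13, edgeR adjusted p = 0.000889). *Por*, the P450 reductase that serves *Cyp51* and *Sqle*, rose with Ox-LDL (0.38 ± 0.09, edgeR adjusted p = 0.00698) and measured −0.14 ± 0.09 with Ac-LDL (edgeR adjusted p = 0.607). *Cyb5r3*, the cytochrome b reductase, had −0.36 ± 0.12 and −0.39 ± 0.12 (edgeR adjusted p = 0.152 and 0.0571).

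Of 10 genes of SREBP regulation and its targets, 9 were tested, and 4 fell in each single comparison with control, *Srebf2*, *Insig1* and *Stard4* among them. *Srebf2*, which encodes SREBP-2, changed by −1.51 ± 0.11 with Ac-LDL and −1.56 ± 0.11 with Ox-LDL (edgeR adjusted p = 9.2e-10 and 2.88e-10). *Insig1*, the anchor that retains SREBP, had −1.63 and −2.01. Among 8 targets of the sterol sensor LXR 4 rose with each LDL averaged over the genotypes: *Abca1*, *Abcg1*, *Mylip* and *Arl4c*. *Abcg1*, a cholesterol exporter, changed by 1.65 ± 0.15 and 1.87 ± 0.15, *Abca1* by 1.72 and 1.60, and *Mylip*, a ubiquitin ligase, by 0.86 and 1.18. *Srebf1* and *Nr1h3* of the same list fell with Ox-LDL. In the list of 8 genes of sterol storage and oxysterols only *Nceh1*, a cholesteryl ester hydrolase, passed (0.29 ± 0.09 with Ox-LDL, edgeR adjusted p = 0.0432). *Npc1*, the lysosomal cholesterol exporter, had 0.22 ± 0.09 (edgeR adjusted p = 0.212), and *Ch25h*, an oxysterol synthase, was at or below 3.33 CPM in every library. These lists were chosen with results of these data known.

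Among 9822 other genes, the 10 with the profile most like the mean of the 9 members across the 18 libraries included *Idi1*, *Fdps*, *Insig1* and *Hmgcs1* (Pearson r of log2 CPM 0.972 to 0.951), then *Ehd1* (0.947), *Fdft1* (0.941), *Mapkapk2* (0.938) and *Sod2* (0.934). *Ehd1* encodes a protein of endosome recycling, *Mapkapk2* a stress kinase and *Sod2* the mitochondrial superoxide dismutase. The libraries share 6 mice and 3 media, and no test was made of these values.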

How the data were processed

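BM-derived macrophages of 6 mice in 3 media gave 18 libraries (SMARTer stranded total RNA kit). In the nf-core pipeline the authors used Trim Galore for trimming, STAR for alignment to mm10 and salmon on the genes of Ensembl release 93. They deposited estimated counts per gene, not scaled for depth. Tool versions and the strand setting are not given in the sources used here. From 5.85 to 8.1% of all values per library, those of 0 included, were not whole, and all were rounded. Genes were kept by edgeR's filterByExpr (min.count 2, min.total.count 10), which left 12290 of 31053. All 18 libraries were fitted as 6 groups with edgeR 4.0.16 in R 4.3.3 (TMM, quasi-likelihood test, two-sided), and p-values were Benjamini-Hochberg adjusted over the 12290 genes (threshold 0.05; intervals are 95%). Log2 CPM used a prior count of 2. Positions and transcript lengths come from GENCODE vM21 (GRCm38); of the annotated 31-base words of a member, at most 2.75% occurred in another gene.

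The groups are the genotypes and media of the labels. The labels name 3 animals per genotype, and each animal gave a library in every medium, so mouse as a block was an alternative for the comparisons of media. Libraries of a mouse deviated together from their group means (18 pairs of libraries, correlation 0.055 to 0.293, above 0.1 in 14). Replicates differed by more than sampling noise (chi-square per degree of freedom 2.03 to 12.7). Other alternatives were DESeq2 1.42.0, library-size scaling, other filters, a fit of only the libraries compared, and each library left out. On counts simulated for Ac-LDL against control in wild type, over 12055 genes, edgeR recovered 91 of 100 genes changed 4-fold and 54 of 100 changed 2-fold with 8 false calls. The changes were placed only in genes above a minimum expected count. Simulated libraries were drawn independently, without mice in common, so these rates do not cover genes at lower counts or the pairing.

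The genes named are the 9 members, the other post-squalene genes, up to 3 genes per list by the smallest p averaged over the genotypes, the targeted gene and the 10 most alike profiles (over a mean of 5 CPM); some genes that this rule takes are not reported here. Members and lists were chosen with earlier results of these data known. The depth, 1043492 to 1768816 counts per library, makes values near 5 CPM rest on under 10 counts.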

Additional observations from a re-analysis of the deposited data

How the results depend on the processing

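Across the alternatives, 8 of 9 members were called with each LDL averaged over the genotypes, in each setting run. In single genotypes the count was 5 to 8. Leaving out 1 library gave 5 to 6 with Ac-LDL in wild type and in knockout, and 6 to 8 with Ox-LDL in each. In these comparisons with control the members whose call changed were *Nsdhl*, *Sc5d* and *Dhcr7*. *Hsd17b7*, with 5 to 54 counts per library, kept its calls in each setting run. In wild type with Ac-LDL *Nsdhl* was no longer past the threshold when any wild type library but the control of mouse 1 was left out (edgeR adjusted p = 0.0656 to 0.151 for 5 of 6), and its call in knockout with Ox-LDL was lost without the control of mouse 1 or the Ox-LDL library of mouse 3 (0.0872 and 0.0685). *Sc5d* lost its call in knockout with Ac-LDL in 4 of 6 such fits (all but the control of mouse 2 and the Ac-LDL library of mouse 1; 0.0563 to 0.202), and in wild type with Ox-LDL in 4 of 6 (the control and Ox-LDL libraries of mice 2 and 3; 0.0555 to 0.145). When the other groups were left out of the fit, *Nsdhl* in wild type with each LDL (0.107 and 0.0805) and *Sc5d* in wild type with Ox-LDL (0.093) were not called. Mouse as a replicate block gave 8, 7, 8 and 8 calls (Ac-LDL in wild type and knockout, Ox-LDL in wild type and knockout), and for Ox-LDL against Ac-LDL in knockout it gave 1 call in place of 0, *Sqle*. DESeq2 and no filter also gave 1 there. The block changed no other call than those given with the results. No paired analysis was possible between the genotypes because no mouse occurs in both. The cause of these changes was not tested.

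Some values that passed no threshold changed sign when 1 library was left out. For *Ebp* the log2 change was −0.02 to 0.23 with Ac-LDL in knockout, −0.15 to 0.24 with Ox-LDL in wild type and −0.19 to 0.02 with Ox-LDL averaged over the genotypes. For Ox-LDL against Ac-LDL in wild type the ranges were −0.338 to 0.359 for *Dhcr7*, −0.244 to 0.226 for *Hsd17b7*, −0.335 to 0.093 for *Lss*, −0.230 to 0.056 for *Msmo1*, −0.612 to 0.040 for *Nsdhl* and −0.371 to 0.232 for *Sc5d*. For knockout against wild type in control medium they were −0.503 to 0.033 for *Dhcr7*, −0.205 to 0.011 for *Msmo1*, −0.384 to 0.102 for *Nsdhl* and −0.095 to 0.220 for *Sc5d*. With Ac-LDL the genotypes differed by −0.289 to 0.295 for *Sc5d*. With Ox-LDL they differed by −0.018 to 0.245 for *Cyp51*, −0.678 to 0.015 for *Dhcr7*, −0.049 to 0.235 for *Msmo1*, −0.083 to 0.567 for *Nsdhl* and −0.157 to 0.186 for *Sqle*. The genotype difference in the Ac-LDL response was −0.225 to 0.310 for *Dhcr7*, −0.186 to 0.286 for *Lss* and −0.384 to 0.184 for *Sc5d*. That in the Ox-LDL response was −0.412 to 0.279 for *Dhcr7* and −0.054 to 0.297 for *Sqle*. With library-size scaling *Dhcr7* gave −0.001 for Ox-LDL against Ac-LDL in wild type, against 0.02 with TMM. Values near 5 CPM rest on under 10 counts.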
